A study of Homo sapiens with 12 samples.

Results

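RBM3 was knocked down with siRNA in PANC-1, an established human cell line from a carcinoma of the pancreatic duct, and transcript levels were measured by RNA sequencing. The comparison uses 6 of the 12 libraries of the series, chosen by their labels: RBM3 siRNA replicates 1, 2 and 3 and control siRNA replicates 1, 2 and 4. The knockdown cells received a mixture of 2 siRNAs against RBM3 (named s11858 and s11860 in the labels) and the control cells a negative control siRNA. In both groups the siRNA was given at 25 nM with a lipid reagent after 72 h of culture, transfection was stopped after 4.5 h, and cells were harvested after recovery overnight. Control cells went through the same transfection, and no untransfected cells were used here. The other 6 libraries are of MIA PaCa-2, a second pancreatic carcinoma line with the same treatments, and serve here only for the estimate of spread and as reference levels. The material is labelled as total RNA in one field and as cytoplasmic RNA in another, and 2 media are named without assigning them to the lines. Separate cultures are not stated for the replicates, and the p-values may therefore reflect technical spread alone.

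RBM3 is a small RNA-binding protein with an RNA recognition motif and a glycine-rich tail, and its transcript and protein are induced when cells are cooled mildly. It binds many messenger RNAs, is associated with ribosomal subunits, and has been linked to translation, to the stability of bound transcripts and to cell survival under stress. CIRBP, its closest relative, shares its domain layout and its induction by cold. In pancreatic cancer, RBM3 has been studied in relation to cell cycle progression and the response to chemotherapy.

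Total counts were between 14217185 and 23993638 in the control libraries and between 31440551 and 33341322 in the RBM3 siRNA libraries, so every knockdown library was deeper than every control library. Levels are given as CPM, counts scaled to a common library size after TMM normalisation. A library in which a gene has no reads can hold up to 3 counts of it, which came to between 0.09 and 0.211 CPM. This limit covers counting error only. Keratins of the ductal list were not alike: over all 6 libraries KRT8, KRT18 and KRT19 had 392788, 237541 and 184550 counts, and KRT7 had 873. KRT8 was at 2340, 3678 and 3043 CPM in control replicates 1, 2 and 4. In the knockdown libraries KRT8 was at 2574, 1904 and 2237 CPM, so the groups overlapped. Of 12 ductal markers, 9 passed the filter on low counts, whereas CFTR and SPP1, also ductal markers, had 5 and 15 counts over all 6 libraries. ONECUT2 and CA2 had 297 and 269. The immune markers summed to between 3.6 and 6.84 CPM. Over all 6 libraries CD3D and NKG7 had 0 counts, while CD14, CD68 and ITGAM had 270, 292 and 292. The endothelial markers summed to between 2.51 and 3.76 CPM, with PECAM1 at 0 counts and ESAM at 394. Acinar and islet markers summed to between 1.27 and 2.47 CPM, with INS, GCG and PPY at 0 counts and CEL at 205. All 13 mitochondrially encoded genes were listed at 0 in every library.

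One PANC-1 library, RBM3 siRNA replicate 3, was unlike the rest in carrying transcripts of MIA PaCa-2. The transcripts were picked without that library: 56 genes had a mean of at least 20 CPM in MIA PaCa-2 and no more than 1 CPM in each of the other 5 PANC-1 libraries. In siRNA replicate 3 these genes stood at a median of 43.5% of the MIA PaCa-2 knockdown level (quartiles 37.8% and 53.9%), against medians between 0.19% and 0.469% in the other 5 libraries, where the choice of genes kept them low. RGS5, a regulator of G protein signalling, was at 400.0 CPM in replicate 3 and between 0.208 and 0.969 CPM elsewhere. TP63, a transcription factor of the p53 family, was at 117.9 CPM in replicate 3 and at most 0.94 CPM elsewhere. The noncoding RNA LINC02154 reached 259 CPM, the hemidesmosome collagen COL17A1 70.2 CPM and the noncoding RNA UCA1 69.7 CPM, while none of them exceeded 0.812 CPM in the other 5.

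Transcripts of PANC-1 itself were lower in that library. For 148 genes at 20 CPM or more in each of the 5 other PANC-1 libraries and at no more than 1 CPM in MIA PaCa-2, replicate 3 stood at a median of 50.9% (quartiles 39.9% and 62.0%) of the mean of siRNA replicates 1 and 2. The controls stood at medians between 92.3% and 97.4%, siRNA replicates 1 and 2 are the reference itself, and the genes were chosen for their level in these 5 libraries. ICAM1, an adhesion molecule, was at 127 CPM in replicate 3 and between 218 and 496 CPM elsewhere. ANPEP, a cell surface aminopeptidase, was at 167 CPM against 301 to 567, and LDHB, a lactate dehydrogenase subunit, at 305 CPM against 429 to 580. VWA1, a matrix protein, was at 465 CPM, just under the range of 475 to 725, and SPARC, a secreted matrix protein, did not follow the others, with 943 CPM against 334 to 899. In such a bulk sample, fewer cells of a type and less RNA per cell cannot be told apart. Comparisons between the groups are therefore given with and without this library.

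**Figure D1:**
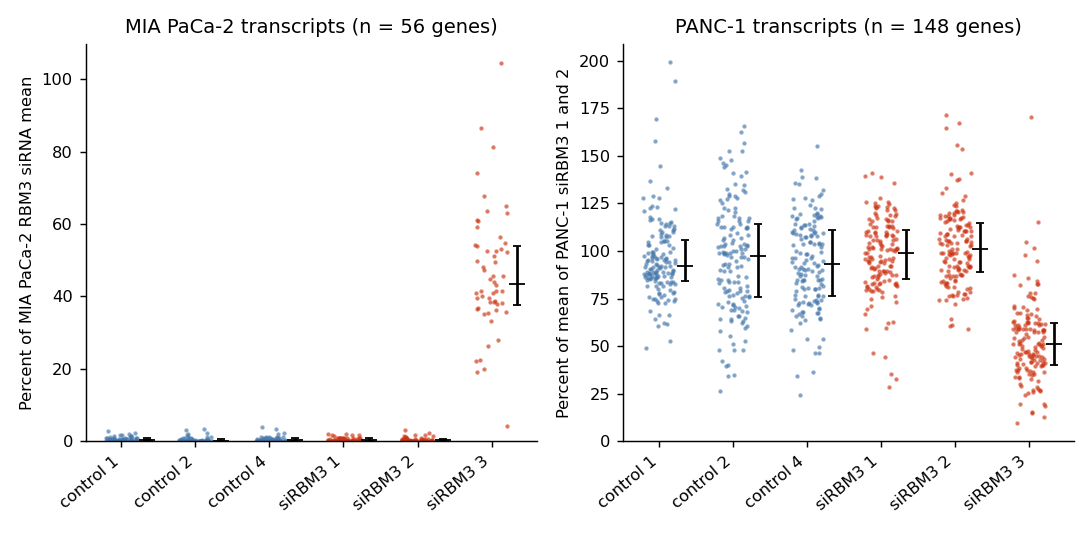
Level of each gene in the 6 PANC-1 libraries, as a percent of the mean of the MIA PaCa-2 knockdown libraries for 56 transcripts of that line (one panel) and as a percent of the mean of siRNA replicates 1 and 2 for 148 transcripts of PANC-1 (the other panel), each point a gene, with medians and quartiles. RBM3 siRNA replicate 3 is the single library with a high median in the first panel (43.5%) and a low one in the other (50.9%).

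The remaining 5 libraries fell into close sets that cut across treatment. Over 11288 genes at 5 CPM or more, control replicate 1 and siRNA replicate 2 correlated at Pearson r = 0.989, and 25 genes differed more than 2-fold between them. Control replicate 4 and siRNA replicate 1 correlated at 0.992 with 12 such genes, and control replicates 2 and 4 at 0.988 with 64. Between the sets the distance was larger: control replicate 1 differed more than 2-fold from its fellow control replicate 2 at 686 genes, and siRNA replicate 2 from siRNA replicate 1 at 816. These correlations are across genes, which are not independent replicates, and the libraries share no stated batch in the labels. The difference within each set is given below beside the overall one, and 2 sets were used: siRNA replicate 2 minus control replicate 1 (the first set), and siRNA replicate 1 minus the mean of control replicates 2 and 4 (the second set). These differences are on the log2(CPM + 0.5) scale. The sets were formed from the libraries' closeness over all genes, after the data were seen, and a set holds no repeat of its knockdown library.

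The target transcript was lower in all 3 knockdown libraries. RBM3 was at 567, 425 and 436 CPM in control replicates 1, 2 and 4 and at 96.4, 194 and 83.0 CPM in siRNA replicates 1, 2 and 3. The groups did not overlap, and siRNA replicate 2 retained the most RBM3 transcript while its close partner, control replicate 1, had the most among controls. The means were 476 ± 78.7 CPM in the controls and 125 ± 60.9 CPM in the knockdown (SD, n = 3 each), or 26.2% of control, and 30.6% without siRNA replicate 3. For comparison, MIA PaCa-2 control cells averaged 244 CPM and MIA PaCa-2 knockdown cells 47.9 CPM. The part of MIA PaCa-2 transcripts in the RBM3 value of siRNA replicate 3 was not tested.

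On the log2 scale the edgeR fold change of RBM3 was -1.93 (SE 0.30) with all libraries and -1.72 (SE 0.30) without siRNA replicate 3. The edgeR adjusted p was 0.516 and 1, respectively, so the target itself missed the threshold of 0.05 in the fit over all genes. The exact two-sided permutation test gave p = 0.1, the smallest value that 3 libraries against 3 can give. Within the sets the log2 difference was -1.54 in the first and -2.15 in the second, and siRNA replicate 3 minus the control mean was -2.50. When the close pair of control replicate 1 and siRNA replicate 2 was given a term of its own in edgeR, RBM3 fell by 2.02 on the log2 scale (adjusted p = 0.013). The same term without siRNA replicate 3 gave a log2 fold change of -1.91 (adjusted p = 0.0466), and in a fit of the 5 PANC-1 libraries alone -1.91 (SE 0.15, adjusted p = 0.00113, 2 residual degrees of freedom). DESeq2, without that term, gave adjusted p-values for RBM3 of 1.75e-05 with and 0.00165 without siRNA replicate 3. Of 13149 genes at 2 CPM or more, RBM3 was the 1 gene over 2-fold apart in the same direction in both sets.

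**Figure D2:**
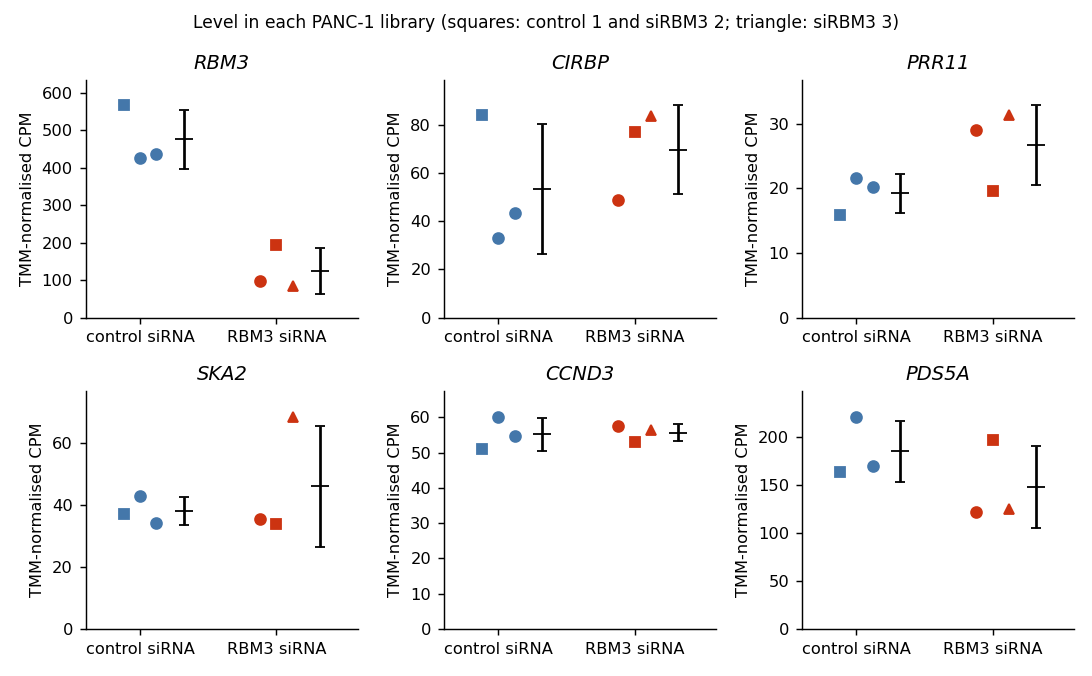
TMM-scaled CPM of RBM3, CIRBP, PRR11, SKA2, CCND3 and PDS5A in each PANC-1 library, with mean ± SD of each group (n = 3). Squares mark the close pair of control replicate 1 and siRNA replicate 2, and triangles mark siRNA replicate 3. RBM3 alone of these genes has no overlap between the groups.

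CIRBP, the relative of RBM3, overlapped between the groups. It was at 84.0, 32.8 and 43.6 CPM in the controls and 48.7, 76.9 and 83.5 CPM in the knockdown. The log2 fold change was 0.38 (SE 0.32), and 0.22 (SE 0.35) without siRNA replicate 3, with an edgeR adjusted p of 1 in both and an exact permutation p of 0.4. The CIRBP values followed the sets: control replicate 1 and siRNA replicate 2 were both high, and the differences within the sets were -0.13 and 0.36. Among 8 tested cold-inducible and RBM3-like genes the median log2 fold change was 0.11, against 0.03 over all 17862 genes tested. Its median without siRNA replicate 3 was 0.00, and RBM3 was the 1 member past an unadjusted p of 0.05.

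PRR11 encodes a proline-rich protein with a role in cell division and is the gene that the series' title puts first, so it was singled out by the study on these libraries and its direction is not independent evidence. PRR11 was at 15.9, 21.6 and 20.2 CPM in the controls and 29.1, 19.6 and 31.3 CPM in the knockdown. Replicates 1 and 3 of the knockdown lay above all controls, and replicate 2 lay inside the control range. The log2 fold change of PRR11 was 0.47 (SE 0.21) with an unadjusted edgeR p of 0.0434 and an adjusted p of 1. Without siRNA replicate 3 it was 0.32 (SE 0.23) with an unadjusted p of 0.178, and the exact permutation p over 3 against 3 was 0.3. The difference within the first set was 0.30 and within the second 0.47. MIA PaCa-2 knockdown cells averaged 51.6 CPM of PRR11, above every PANC-1 library, and the part of MIA PaCa-2 transcripts in the value of siRNA replicate 3 was not tested.

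SKA2 lies next to PRR11 in the genome and encodes a kinetochore protein. SKA2 was at 37.1, 43.0 and 34.4 CPM in the controls and 35.5, 34.0 and 68.7 CPM in the knockdown, so siRNA replicate 3 alone was above the control range. Its log2 fold change was 0.27 with that library and -0.15 without it, and the differences within the sets were -0.12 and -0.11. The exact permutation p was 0.9, and MIA PaCa-2 control cells averaged 86.3 CPM of SKA2. The other SKA genes, SKA1 and SKA3, had log2 fold changes of -0.05 and -0.22 without siRNA replicate 3.

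CCND3, a D-type cyclin that drives the entry into S phase, was at 50.9, 60.2 and 54.7 CPM in the controls and 57.6, 53.02 and 56.5 CPM in the knockdown. These ranges overlapped nearly entirely, with a log2 fold change of 0.01 (SE 0.18), -0.02 without siRNA replicate 3, and an exact permutation p of 1. PDS5A, a regulator of cohesin, was at 163, 221 and 170 CPM in the controls and 121, 196 and 125 CPM in the knockdown. PDS5A had a log2 fold change of -0.32 (SE 0.20), -0.23 without siRNA replicate 3, and an exact permutation p of 0.3. The sets pointed opposite ways for PDS5A, 0.27 in the first and -0.67 in the second.

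Across all genes, edgeR called 0 of 17862 genes (percent called 0) at an adjusted p under 0.05, and 0 of 18422 (0) without siRNA replicate 3. At an unadjusted p under 0.05, 665 genes (3.72%) were higher and 71 (0.397%) lower with all libraries, where 893 in all would be reached by that p alone. These counts without siRNA replicate 3 were 105 (0.57%) higher and 93 (0.505%) lower. Limma-voom also called 0 genes with (0%) and without (0%) that library. DESeq2 called 3 genes (0.0168%) with all libraries, namely RBM3, GJB5 and a gene without a symbol, and 1 gene (0.00543%), RBM3, without siRNA replicate 3. GJB5, a gap junction protein, had 14.1 CPM in siRNA replicate 3 and no counts in the other 5 PANC-1 libraries.

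The filter on low counts and the pair term moved these counts. With no filter, edgeR called 230 of 35072 genes (0.656%) with all libraries, 229 of them higher, and in all 229 siRNA replicate 3 was above every other PANC-1 library. For 227 of the 229 the MIA PaCa-2 mean was at least 2-fold above the PANC-1 control mean. Without that library the unfiltered fit called 1 of 34711 genes (0.00288%), RBM3. With the pair term, edgeR called 1 gene (0.0056%) with all libraries, 1 (0.00543%) without siRNA replicate 3 and 1 of 16774 (0.00596%) in the PANC-1 libraries alone, RBM3 each time. In the last of these fits, 543 genes (3.24%) were higher and 436 (2.6%) lower at an unadjusted p under 0.05. The share of genes with a positive log2 fold change was 54.8% with all libraries and 50.5% without siRNA replicate 3.

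The 3 knockdown libraries lay above all 3 controls at 669 genes (3.75%) and below them at 495 (2.77%). Libraries in random order would not overlap, in one direction or the other, at a share of 0.1 of genes. That share is the smallest exact permutation p, so these counts are not read as a response. Adding an unadjusted edgeR p under 0.05 with and without siRNA replicate 3 and a level of 2 CPM left 34 genes higher (0.19%) and 9 lower (0.0504%). None passed the adjusted test, so they are given as values. Because the choice required the groups not to overlap, the direction in the libraries is part of the rule. The choice also fixed their direction within both sets, where only the sizes are informative. Without siRNA replicate 3 the log2 fold changes ran from 0.34 to 1.13 for the higher genes and from -1.72 (RBM3) to -0.39 for the lower.

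The higher genes named are the 12 with the smallest edgeR p in the fit without siRNA replicate 3. PPP2R1B, a scaffold subunit of the phosphatase PP2A, was at 73.1, 54.5 and 52.5 CPM in the controls and 104, 96.6 and 108 CPM in the knockdown. Its log2 fold change was 0.78 (SE 0.17), 0.72 (SE 0.19) without siRNA replicate 3, and 0.40 and 0.95 within the sets. MCFD2, a partner of the cargo receptor LMAN1 in transport from the endoplasmic reticulum, was at 109, 76.0 and 75.5 CPM in the controls and 137, 139 and 153 CPM in the knockdown. For MCFD2 the controls differed more among themselves than the knockdown libraries, and the log2 difference was 0.34 in the first set and 0.85 in the second. MBTPS1, the site 1 protease that cleaves membrane-bound transcription factors, was at 126, 103 and 104 against 162, 147 and 208 CPM, with 0.64 overall and 0.46 without siRNA replicate 3. MIA PaCa-2 cells averaged 166 CPM of MBTPS1 in the controls and 267 CPM in the knockdown. NRBF2, an autophagy protein, was at 30.3, 19.96 and 21.3 against 40.7, 40.9 and 43.7 CPM. SMAP1, a GTPase-activating protein of vesicle traffic, was at 62.0, 48.5 and 47.5 against 92.6, 79.2 and 77.3 CPM. In all of these genes control replicate 1 was the highest control, and the first set gave the smaller difference.

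NTN1, the guidance cue netrin-1, was at 12.3, 6.72 and 11.96 CPM in the controls and 25.8, 18.7 and 13.3 CPM in the knockdown, with log2 fold changes of 0.90 (SE 0.30) and 1.08 (SE 0.29) without siRNA replicate 3. Replicate 3 was close to the highest control, and the 2 other knockdown libraries were well above it. TTC3, a ubiquitin ligase, was at 78.3, 114 and 91.1 against 152, 191 and 221 CPM, with 0.99 (SE 0.28) and 0.85 (SE 0.30). The MIA PaCa-2 control mean of TTC3 was 288 CPM, above every PANC-1 library. RFK, the riboflavin kinase, was at 33.2, 18.9 and 23.9 against 44.6, 43.0 and 41.7 CPM. TAPT1, a membrane protein, was at 10.7, 7.35 and 8.33 against 18.9, 17.8 and 17.0 CPM. In RFK and TAPT1 the knockdown libraries lay close together, and control replicate 1 was the highest control. SLC45A4, a solute carrier, was at 18.8, 18.5 and 18.6 against 36.6, 25.6 and 25.1 CPM. KCNJ12, a potassium channel, was at 6.88, 4.71 and 4.42 against 8.12, 9.45 and 9.95 CPM, and the noncoding RNA LINC02228 at 3.85, 5.75 and 4.42 against 6.97, 13.5 and 8.19 CPM. LINC02228 and TTC3 differed more in the first set (1.69 and 1.28) than in the second (0.43 and 0.57).

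The 9 lower genes, RBM3 among them, had transcripts shorter than the median gene. MORF4L1, a subunit of the NuA4 histone acetyltransferase, was at 398, 433 and 456 CPM in the controls and 280, 297 and 225 CPM in the knockdown. MIA PaCa-2 cells averaged 278 CPM of MORF4L1 in the controls and 146 CPM in the knockdown. Their part in the MORF4L1 value of siRNA replicate 3, the lowest library, was not tested. The log2 fold change of MORF4L1 was -0.68 (SE 0.16), -0.59 (SE 0.16) without siRNA replicate 3, and -0.42 and -0.66 within the sets. Its pseudogene MORF4L1P1 was at 32.8, 38.7 and 41.6 against 25.3, 24.7 and 19.7 CPM. The copies are near-identical, so reads could have been split between them, and the values of both are uncertain. The pseudogenes RPSAP61 and SEM1P1, copies of RPSA and SEM1, carry the same doubt, with log2 fold changes of -0.54 and -0.74. RPSA itself had a log2 fold change of 0.01.

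The other lower genes were RPS16, FBL, S100A6 and SEC61G. RPS16, a protein of the small ribosomal subunit, was at 2930, 3343 and 3092 CPM in the controls and 2294, 2225 and 1796 CPM in the knockdown. RPS16 had a log2 fold change of -0.57 (SE 0.20), -0.48 (SE 0.20) without siRNA replicate 3, and a MIA PaCa-2 control mean of 692 CPM. FBL, the methyltransferase fibrillarin of the nucleolus, was at 1723, 1942 and 1798 against 1494, 1320 and 1012 CPM, with a MIA PaCa-2 control mean of 231 CPM. In both genes siRNA replicate 3 was the lowest library. S100A6, a calcium-binding protein, was at 894, 1048 and 1005 against 821, 676 and 684 CPM, and SEC61G, a subunit of the translocation channel of the endoplasmic reticulum, at 145, 132 and 135 against 106, 106 and 91.5 CPM. For each of these genes, the edgeR adjusted p was 1 in both fits. The exact permutation p was 0.1, the smallest possible, but the rule of no overlap fixed it in advance, so it is no evidence for them.

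**Figure D3:**
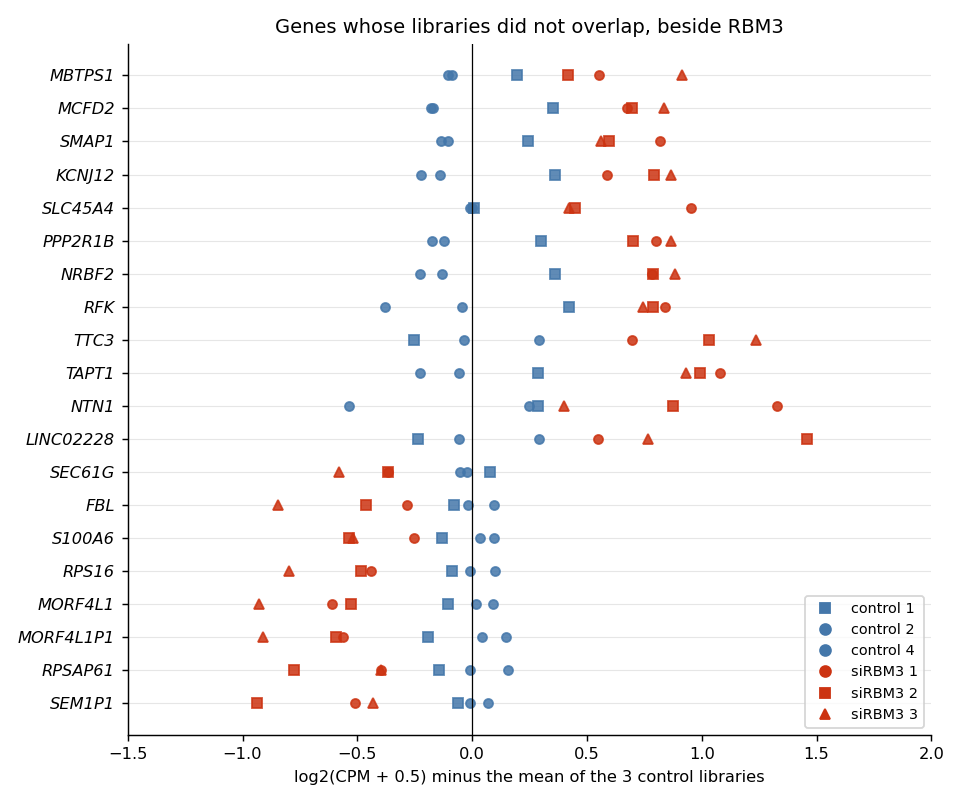
Log2(CPM + 0.5) of 20 genes in each PANC-1 library minus the mean of the control libraries: the 12 higher genes with the smallest p without siRNA replicate 3 and the 8 lower genes other than RBM3 that met every criterion. The knockdown libraries are all on one side of the controls because the rule asked for this, and siRNA replicate 3 at NTN1 and siRNA replicate 1 at S100A6 lie near the control range.

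The differences within the first set followed transcript length. Over 12892 genes with a known length, taken as that of the longest transcript, Spearman's rank correlation between length and the log2 difference was 0.58 in the first set and 0.06 in the second. The correlation was 0.41 for the fold change without siRNA replicate 3, and between -0.02 and 0.04 for all 3 when set against expression level in place of length. These are correlations across genes of the same libraries, given as a description. Genes were split by length into 4 groups of 3223. In the shortest group (up to 2190 bases) the median difference was -0.19 in the first set and 0.03 in the second. In the longest group (5263 bases and over) it was 0.24 and 0.05. Among the shortest genes 35.8% were lower in both sets and 11.3% higher, and among the longest 7.14% were lower in both and 51.9% higher. Of the 34 higher genes 24 were longer than the median, with a median length of 5282 bases, and of the 9 lower genes 0 were, with a median of 1227. How far length takes part in the values of these genes was not tested.

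**Figure D4:**
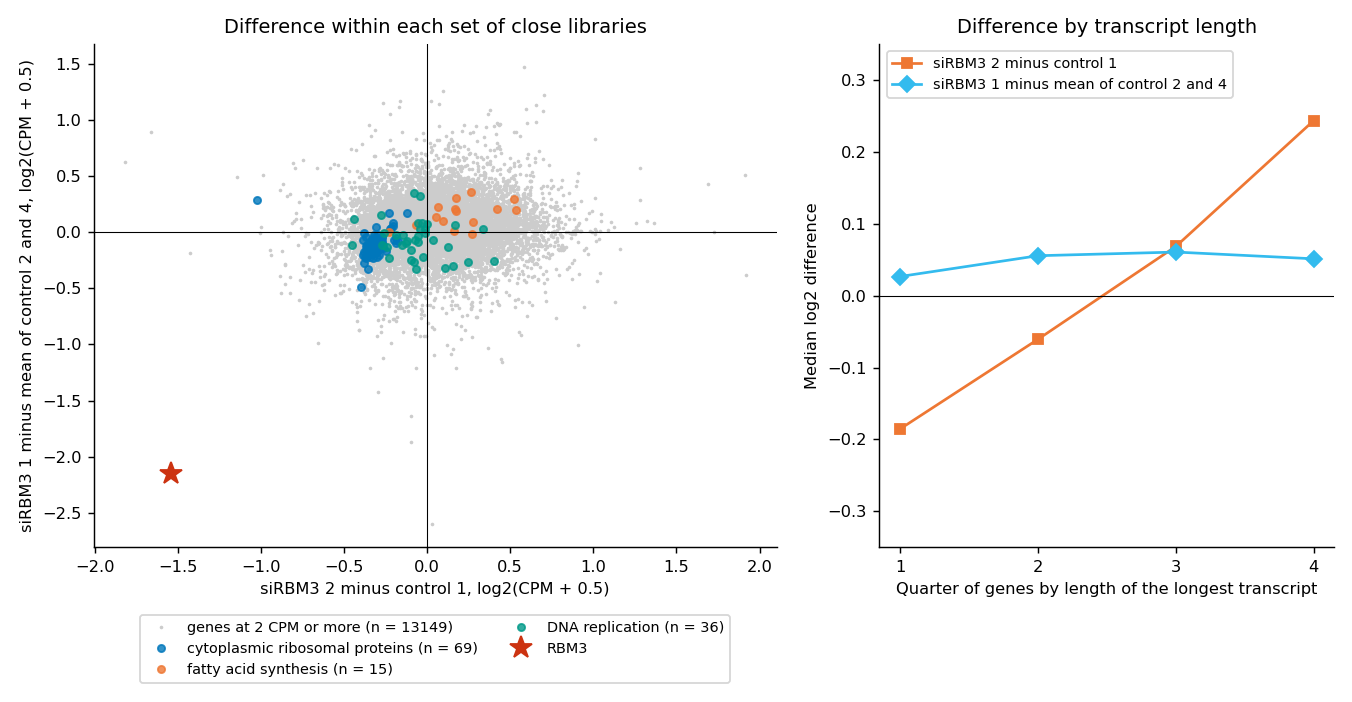
Left, log2 difference of each of 13149 genes within the first set (siRNA replicate 2 minus control replicate 1) against that within the second (siRNA replicate 1 minus the mean of control replicates 2 and 4), with 3 gene lists and RBM3 marked. Right, median difference in 4 groups of genes by transcript length: the first set goes from -0.19 to 0.24, the second stays between 0.03 and 0.06.

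Transcripts of ribosomal proteins were nearly all lower once siRNA replicate 3 was left out. Of 69 tested genes for cytoplasmic ribosomal proteins, 68 had a negative log2 fold change without that library, with a median of -0.23 against 0.00 over all genes. With all libraries 50 were negative and the median was -0.09. The list had its median at -0.31 in the first set, where 69 of 69 were lower, and at -0.11 in the second, where 61 of 69 were lower, beside medians of 0.00 and 0.04 over all genes. At 2 CPM or more, 21.1% of all genes were lower in both sets, and 61 of the 69 were. In siRNA replicate 3 the list was at a median of 0.08 above the controls. The MIA PaCa-2 controls were at a median of 0.40 above the PANC-1 controls for this list, and their part in that library's value was not tested. No member passed the adjusted test, 1 was lower at an unadjusted p under 0.05 (RPS16), and 16 of 69 had all knockdown libraries below all controls, beside 2.77% of all genes. In the PANC-1 fit with the pair term 35 of 69 were lower at an unadjusted p under 0.05 and 0 higher, beside 2.6% of all genes lower.

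Ribosomal protein transcripts are short: the median longest transcript of the list was 1872 bases, and 59 of the 69 were below the median of all genes of 3509. RPLP2, a protein of the ribosomal stalk, was at 684, 793 and 753 CPM in the controls and 615, 535 and 605 CPM in the knockdown, so its groups did not overlap. RPL30 was at 522, 560 and 568 against 502, 440 and 445 CPM, and RPS21 at 304, 336 and 403 against 320, 232 and 276 CPM, where siRNA replicate 1 lay inside the control range. RPL15 was the 1 member with a positive fold change without siRNA replicate 3, at 0.05. The part of length in the ribosomal protein values was not tested. Among 37 translation initiation factors the median was 0.01, and 0.04 without siRNA replicate 3. EIF3K, a subunit of the initiation factor eIF3, was at 884, 968 and 982 CPM in the controls and 866, 709 and 548 CPM in the knockdown, with an unadjusted p of 0.0451 and, without siRNA replicate 3, 0.127.

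In the other RNA-binding lists no gene passed the adjusted test. Of 31 tested SR proteins and hnRNPs, which act in splicing and RNA export, 14 were positive and 17 negative with all libraries, and 15 and 16 without siRNA replicate 3, with a median of -0.01 both times. Of 27 other RBM genes 17 were positive and 10 negative with all libraries (median 0.08), and 19 and 8 without siRNA replicate 3 (median 0.11). The 13 genes of small RNA silencing, among them DICER1 and AGO2, had medians of 0.07 and, without siRNA replicate 3, 0.04, with 0.29 in the first set and -0.06 in the second. DICER1, which cuts small RNA precursors, was at 74.9, 88.3 and 70.8 CPM in the controls and 71.7, 112 and 76.0 CPM in the knockdown, and only siRNA replicate 2 lay above the controls.

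No glycolytic or respiratory transcript passed the adjusted test. Of 20 tested glycolysis genes, 9 were positive and 11 negative with all libraries (median -0.08). In the fit without siRNA replicate 3, 4 were positive and 16 negative (median -0.14). In both sets 13 of 20 were lower, beside 21.1% of all genes at 2 CPM or more. ENO1, the enolase of glycolysis, was at 2194, 2380 and 2307 CPM in the controls and 2048, 1802 and 2067 CPM in the knockdown. GAPDH was at 1902, 2164 and 2040 against 1769, 1562 and 2311 CPM, where siRNA replicate 3 was above every control. In the PANC-1 fit with the pair term 6 of 19 were lower at an unadjusted p under 0.05, beside 2.6% of all genes: ENO1, ALDOA, PKM, PGAM1, GAPDH and TPI1. For 42 tested nuclear genes of oxidative phosphorylation, 31 were negative with all libraries (median -0.12) and 38 without siRNA replicate 3 (median -0.14). The sets differed for these genes: 40 of 42 were lower in the first and 13 of 42 in the second, with medians of -0.26 and 0.04. Among the 13149 genes at 2 CPM or more, 6438 were lower in the first set and 5175 in the second. The oxidative phosphorylation genes had a median length of 1836 bases, close to that of the ribosomal protein genes, and the part of length was not tested. COX6A1, a subunit of cytochrome oxidase, was at 9.02, 12.9 and 12.9 CPM in the controls and 8.84, 7.59 and 6.18 CPM in the knockdown, with an unadjusted p of 0.0323 and, without siRNA replicate 3, 0.0786.

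Most lipid synthesis genes had higher values, none past the adjusted test. Of 15 tested fatty acid synthesis genes, 12 had a positive log2 fold change with all libraries and 13 without siRNA replicate 3, and 12 were higher in both sets with 0 lower, beside 32.8% of all genes at 2 CPM or more higher in both. The median was 0.28, and 0.22 without siRNA replicate 3, with 0.17 and 0.19 within the sets. GPAM, which starts glycerolipid synthesis, was at 18.6, 18.6 and 17.3 CPM in the controls and 20.6, 27.1 and 27.7 CPM in the knockdown, without overlap. ACSL3, which activates fatty acids, was at 154, 124 and 117 against 148, 174 and 157 CPM, with overlap. ACSL1, which acts alike, was at 37.4, 27.5 and 32.7 against 34.3, 42.2 and 54.8 CPM, where siRNA replicate 1 lay below control replicate 1. The median length of the list was 4653 bases, above that of all genes, and the part of length was not tested. Of 22 cholesterol synthesis genes 14 were positive with all libraries (median 0.06) and 19 without siRNA replicate 3 (median 0.10).

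In the secretory pathway, 25 of 33 genes of transport between the endoplasmic reticulum and the Golgi were positive with all libraries (median 0.09) and 26 without siRNA replicate 3 (median 0.10). In both sets 18 of 33 were higher, beside 32.8% of all genes at 2 CPM or more. SRPRA, a subunit of the receptor for the signal recognition particle, was at 248, 175 and 174 CPM in the controls and 302, 281 and 240 CPM in the knockdown. Control replicate 1 overlapped with siRNA replicate 3, and the unadjusted p was 0.0195, and 0.0126 without that library. Of 18 chaperones of the endoplasmic reticulum 11 were positive with all libraries and 12 without siRNA replicate 3, with a median of 0.08 both times. SEL1L, a component of the machinery that degrades misfolded proteins there, was at 89.7, 70.7 and 63.4 against 104, 131 and 85.6 CPM. In SEL1L siRNA replicates 1 and 2 were above all controls, and its log2 fold change without replicate 3 was 0.64 (unadjusted p = 0.0273). The 16 cytosolic heat shock proteins had a median of -0.07, and -0.04 without siRNA replicate 3, and the 32 lysosome and autophagy genes -0.01 and 0.02.

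No gene of the cell cycle lists passed the adjusted test. Of 36 DNA replication genes 21 were negative with all libraries (median -0.04) and 30 without siRNA replicate 3 (median -0.15). In both sets 19 of 36 were lower, beside 21.1% of all genes at 2 CPM or more. The DNA replication genes had a median length of 3184 bases, and 23 of 36 were below the median of all genes. The part of length in their values was not tested. MCM7, part of the replicative helicase, was at 416, 407 and 437 CPM in the controls and 360, 354 and 429 CPM in the knockdown, where replicate 3 lay inside the control range. The mitosis list turned with the library: of 34 genes 20 were positive and 14 negative with all libraries (median 0.03), and 11 and 23 without siRNA replicate 3 (median -0.09). In the second set 26 of 34 were higher, beside 7968 of the 13149 genes at 2 CPM or more. No mitosis gene passed an unadjusted p of 0.05 in the fits of all libraries, without siRNA replicate 3, or with the pair term. The D-type cyclins and RB pathway genes had a median of 0.05 over 16 tested, and 0.13 without siRNA replicate 3. The replication-dependent histones had -0.12 and -0.13 over 9 tested, and the histone variants -0.04 and -0.07 over 9. H2AZ1, a histone variant, was at 312, 305 and 360 CPM in the controls and 233, 242 and 189 CPM in the knockdown, without overlap (unadjusted p = 0.0607, and 0.13 without siRNA replicate 3).

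Cohesin, the ring that holds sister chromatids, had 10 of 14 genes positive with all libraries and 11 without siRNA replicate 3, with a median of 0.16 both times. In both sets 9 of 14 were higher, beside 32.8% of all genes at 2 CPM or more. STAG2, a subunit of the ring, was at 97.9, 112 and 84.4 CPM in the controls and 143, 131 and 197 CPM in the knockdown, without overlap. Its log2 fold change was 0.68 with an unadjusted p of 0.017, and 0.46 with 0.0983 without siRNA replicate 3. CDCA5, the cohesin stabiliser sororin, was at 146, 159 and 170 against 144, 122 and 115 CPM. Cohesin genes are long, with a median of 5867 bases, and 1 of 14 was below the median of all genes. The 15 PP2A subunits had a median of 0.06, and 0.02 without siRNA replicate 3, and besides PPP2R1B the regulatory subunit PPP2R5E was without overlap, at 70.0, 66.8 and 60.3 against 78.4, 82.7 and 88.7 CPM. The 18 NuA4 genes had medians of 0.03 and 0.00, and MORF4L1 was the 1 member past an unadjusted p of 0.05. The 35 DNA repair genes had 0.07 and 0.01, and the 23 p53 targets 0.18 and 0.01.

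Stress and signalling lists differed between libraries of one group. Of 28 genes of the ATF4 amino acid response, 26 were higher in the second set and 21 lower in the first. Among the 13149 genes at 2 CPM or more, 7968 were higher in the second set and 6438 lower in the first. The ATF4 list's median was -0.03 with all libraries, 0.15 without siRNA replicate 3, and -0.48 in replicate 3 against the controls. WARS1, a tryptophan tRNA synthetase, was at 202, 126 and 147 CPM in the controls, at 169 and 193 in siRNA replicates 1 and 2, and at 521 in replicate 3, with a MIA PaCa-2 control mean of 971 CPM. The 15 NF-kB targets had medians of -0.07 and 0.13, and -0.82 in siRNA replicate 3. CXCL8, a chemokine, was at 18.2, 1.94 and 2.48 against 1.88, 17.9 and 57.3 CPM, high in both libraries of the first set and in replicate 3. The 21 hypoxia genes had medians of 0.13 and 0.09, the 36 interferon genes 0.13 and -0.04, and the 22 BCL2 family and caspase inhibitor genes 0.06 and 0.14. HIF1AN, which restrains the hypoxia factor, was at 153, 176 and 177 against 112, 155 and 93.4 CPM, with 0.01 in the first set and -0.65 in the second.

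The RAS and ERK list had a median of 0.16 over 23 tested, and 0.11 without siRNA replicate 3. NRAS, a RAS GTPase, was at 160, 124 and 113 CPM in the controls and 166, 188 and 158 CPM in the knockdown, with unadjusted p-values of 0.0401 and, without siRNA replicate 3, 0.0489. The 22 YAP and TEAD targets had medians of -0.10 and 0.14, and WWTR1, which encodes the coactivator TAZ, was at 530, 324 and 331 against 437, 654 and 456 CPM. The 14 transcripts linked to RBM3 in earlier work had medians of 0.13 and 0.09, and NTRK2, the receptor TrkB, was at 0.983, 0.624 and 0.828 against 2.09, 1.67 and 0.278 CPM. In NTRK2 siRNA replicates 1 and 2 were above the controls and replicate 3 below them, with an unadjusted p of 0.29, and 0.0377 without replicate 3. MIA PaCa-2 control cells averaged 0.05 CPM of NTRK2.

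No epithelial or mesenchymal gene passed the adjusted test. Of 26 tested epithelial genes 19 were negative with all libraries (median -0.24) and 20 without siRNA replicate 3 (median -0.16), with medians of -0.07 and -0.06 within the sets. KRT19 was at 952, 1912 and 1438 CPM in the controls and 1265, 758 and 1150 CPM in the knockdown, and KRT18 at 1533, 1868 and 1803 against 1603, 1216 and 1340 CPM. Both keratins overlapped between the groups, and both were lower in both sets. Of 23 mesenchymal genes 16 were negative with all libraries (median -0.07) and 15 without siRNA replicate 3 (median -0.08). TPM2, a tropomyosin, was at 577, 612 and 537 against 477, 466 and 419 CPM, without overlap and with an unadjusted p of 0.074.

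The largest fold changes in the lists belonged to siRNA replicate 3. COL1A2, a chain of type I collagen, was at 440 CPM there and between 0.046 and 1.67 CPM in the other 5 libraries, while MIA PaCa-2 control cells averaged 1505 CPM. COL6A3 was at 102 CPM against 3.38 to 5.17, with a MIA PaCa-2 control mean of 156 CPM. The 12 fibroblast or stellate markers summed to 645 CPM in replicate 3 and to between 148 and 244 CPM elsewhere, and over the 7 tested the median log2 fold change was 0.95 with it and 0.02 without it. The other members of the marker list were mixed. Over all 6 libraries COL1A1 had 24136 counts, COL3A1 1120, COL5A1 1017, ACTA2 508 and PDGFRB 161. DCN had 1 count, LUM 4, PDGFRA 2, FAP 2 and POSTN 1. AKR1C1, a target of NRF2, was at 36.6 CPM in replicate 3 and at most 0.363 elsewhere, and the glucose transporter SLC2A3 at 11.5 CPM and at most 0.697. The part of MIA PaCa-2 transcripts in these values was not tested beyond leaving the library out. The 20 NRF2 targets had a median of 0.18, and 0.13 without siRNA replicate 3.

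**Figure D5:**
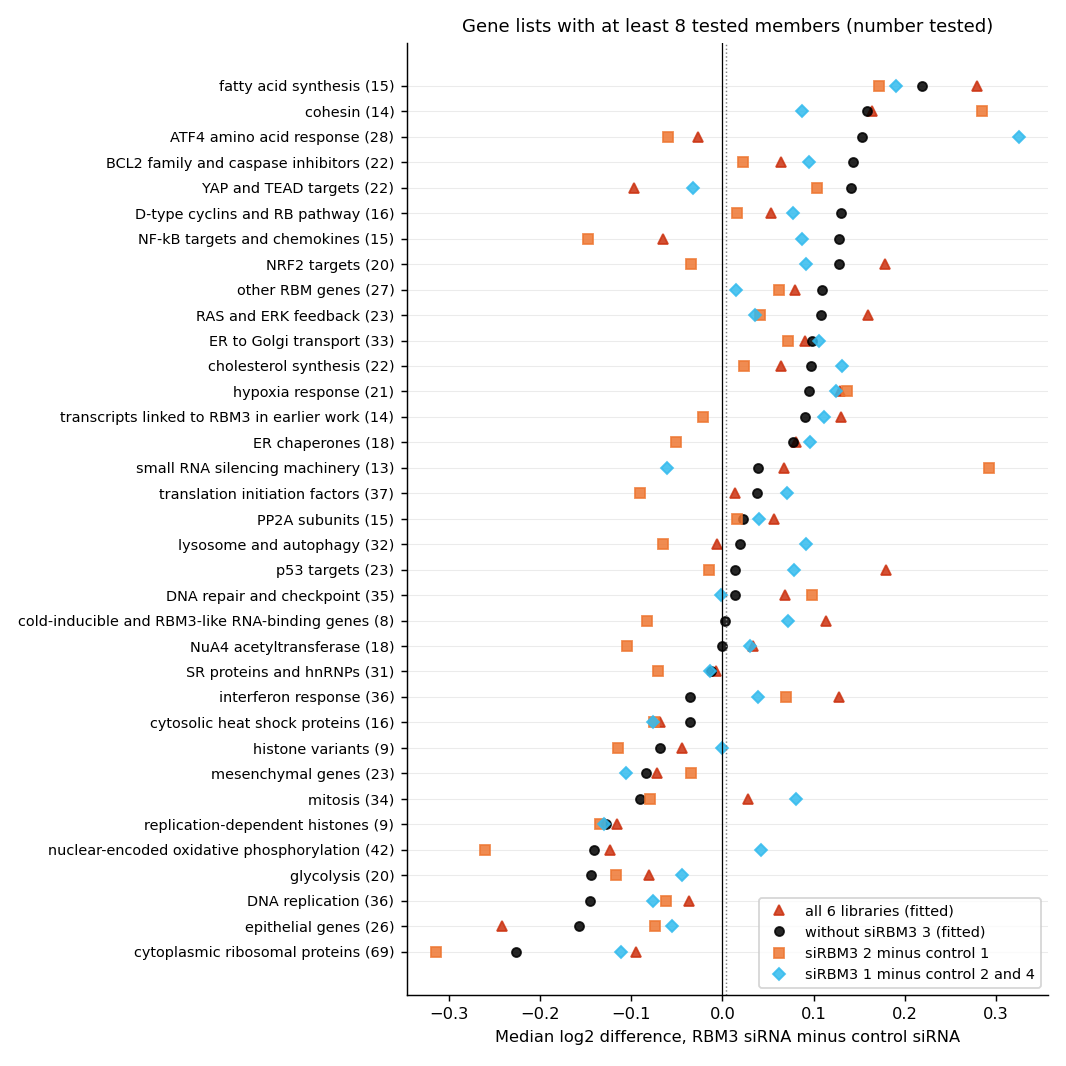
Median log2 difference of each gene list with at least 8 tested genes, for all libraries, without siRNA replicate 3, and within the 2 sets. The dotted line is the median of all genes without siRNA replicate 3. Ribosomal protein genes have the lowest median in the first set (-0.31). Fatty acid synthesis genes are on the positive side in all 4, as are other lists, among them cohesin and hypoxia response.

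A few genes outside the rule were looked up after their values were seen. MET, the receptor of hepatocyte growth factor, was at 161, 88.5 and 73.8 CPM in the controls and 178, 253 and 121 CPM in the knockdown, with log2 differences of 0.66 and 1.13 in the sets. The MET groups overlapped through control replicate 1, and the PANC-1 fit with the pair term gave a log2 fold change of 0.91 (adjusted p = 0.245). SLC7A11, the cystine transporter, was at 74.5, 11.5 and 23.4 against 29.5, 151 and 8.04 CPM. SLC7A11 was highest in the libraries of the first set, and its differences within the sets were 1.01 and 0.83. Neither gene passed the adjusted test.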

How the data were processed

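The authors deposited raw counts, without normalisation, for 63677 Ensembl genes. STAR 2.5.2a, Picard, featureCounts and Subread were used with hg19/GRCh37, per the submitters' processing notes. Strand setting, duplicate treatment and annotation release were not given in the sources used here, so overlapping and antisense genes cannot be told apart and abundant transcripts may be affected. A gene name table matched 52181 identifiers and gave 39699 a symbol.

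Counts were tested with edgeR 4.0.16 in R 4.3.3 (two-sided quasi-likelihood F-test, TMM, filterByExpr with a minimum count of 10) in 1 model of 4 group means over all 12 libraries, with 8 residual degrees of freedom, and in 11 libraries without siRNA replicate 3. P-values were adjusted over all genes by the Benjamini-Hochberg method at 0.05. SEs are approximate, the size of a log2 fold change over the square root of its F. DESeq2 1.42.0 and limma 3.58.1 (voom), scaling by library size only or by median-of-ratios factors, a threshold of 0.1, no filter, a filter of 1 CPM, PANC-1 libraries alone, the replicate number as a block and the removal of each library were alternatives. The pair term, the crossed block, the within-set differences and the length summaries were added after seeing the data. Lengths are those of the longest transcript of each gene in an annotation of another build, used for length and gene type only.

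The members, the 37 gene lists and 5 marker lists, and the rule for named genes were chosen with earlier results of these data known. The rule named RBM3, CIRBP, PRR11, SKA2, CCND3 and PDS5A, any gene past the adjusted threshold, and up to 12 genes per direction, by the smallest p without siRNA replicate 3, that had an unadjusted p under 0.05 in both fits, did not overlap between groups and reached 2 CPM. It also named up to 4 members of each list, and 5 transcripts of each line. Replicate numbers 1 and 2 are shared between the groups, but same-numbered libraries deviated in opposite directions (correlations of -0.53 and -0.50). The siRNA deviations in these correlations are from a mean that includes siRNA replicate 3. Compared directly, same-numbered libraries differed more than 2-fold at 636 genes (replicates 1) and 834 (replicates 2), so they do not pair. The tests were run on simulated counts of 17862 genes, with changes planted only in genes at 5 CPM or more. With all libraries edgeR recovered 27% of 2-fold changes and 92.5% of 4-fold changes, and without siRNA replicate 3 15.5% and 86%. The simulated libraries were drawn independently around group means, without close sets and without MIA PaCa-2 transcripts in siRNA replicate 3. The spread of each gene was that estimated from all 12 real libraries, siRNA replicate 3 included, also for the fit without it. These shares therefore cannot say which changes the real libraries would miss. RBM3 itself, at a log2 fold change of -1.93, had an edgeR adjusted p of 0.516 with all libraries.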

Additional observations from a re-analysis of the deposited data

How the results depend on the processing

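With all libraries, edgeR called 0 genes; DESeq2 called 3, no filter 230, the pair term 1, and the removal of single libraries 0 to 1 (1 without siRNA replicate 2, RBM3). Without siRNA replicate 3 it called 0; DESeq2, no filter, the pair term, the pair term in PANC-1 alone and the crossed block called 1 each, and the removal of single libraries 0. The replicate block, from numbers that do not pair the libraries, called 0 genes in both comparisons, with 45 higher and 25 lower at an unadjusted p under 0.05 with all libraries, and the block turned SKA2 to -0.20 and CCND3 to -0.0028. The log2 fold change of RBM3 was past the threshold with DESeq2 (-1.95), no filter (-1.91), the pair term (-2.02) and without siRNA replicate 2 (range over removals -2.42 to -1.72). Without siRNA replicate 3 it was so with DESeq2 (-1.72), no filter (-1.69), the pair term (-1.91, and -1.91 in PANC-1 alone) and the crossed block (-1.86), and ran from -2.34 to -1.29 over removals. CCND3, near 0, changed sign with DESeq2 (-0.0152), median-of-ratios factors (-0.0156), 1 CPM (-0.0043) and removals (-0.0502 to 0.0835), and without siRNA replicate 3 with no filter (0.0325), the pair term (0.0085, and 0.0040 in PANC-1 alone) and removals (-0.0557 to 0.0704). SKA2 ran from -0.15 to 0.44 over removals. Without siRNA replicate 3, CIRBP ran from -0.17 to 0.72 and PDS5A from -0.64 to 0.092. The cause of these changes was not tested. Over 775 alternatives of 50 results for named genes other than RBM3, 17 changed sign and 1 passed the threshold (TTC3 with no filter, adjusted p = 0.0129, all libraries). The MIA PaCa-2 share in siRNA replicate 3 was between 40.9% and 46.9%. At an unadjusted p under 0.05 the alternatives gave 45 to 1240 genes higher and 25 to 343 lower, and without siRNA replicate 3 39 to 634 and 25 to 436. Every knockdown library was deeper than every control, and the part of depth was not tested.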
